A study of Mus musculus with 4 samples.

Results

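The cells described here are the macrophages that were left in a library of activated satellite cells (ASC) after 3 other macrophage groups had been taken out. They were chosen by measured transcript counts. Of the library's 10818 cell barcodes, 6743 were kept, each with at least 1000 UMIs (unique molecular identifiers, which stand for captured transcripts), 500 or more detected genes and no more than 10% of UMIs from mitochondrial transcripts. A kept barcode counted as a macrophage where Lyz2, Ctss, Tyrobp, Fcer1g and C1qb together made up at least 0.5% of its UMIs, which held for 3399 barcodes. The 340 macrophages (10%) with the highest share of H2-Aa, H2-Ab1, H2-Eb1 and Cd74 were taken out first and are called antigen-presenting here. The 612 cells (20% of the rest) with the highest share of Ifit3, Rsad2, Isg15 and Irf7 followed and are called interferon-responding. The 612 cells (25% of the rest) with the highest share of Il1a, Il1b and Cxcl3 came last and are called Il1-expressing. The 1835 cells left are the members. They made up 54.0% of the macrophages, 27.2% of the 6743 kept ASC barcodes (exact binomial 95% interval 26.2 to 28.3%) and were compared within a series of 21301 kept barcodes. Members were set beside the 2586 ASC cells, called myogenic here, that had at least 10 UMIs of Pax7, Myod1, Des, Cdh15, Itga7 and Fgfr4 and did not meet the macrophage threshold.

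The series compared muscle stem cells taken from mice with muscle stem cells grown in culture, with 1 library per group and so no replicates. All mice carried Pax7-nGFP, a reporter in which the Pax7 promoter drives a nuclear GFP; Pax7 is a transcription factor found in satellite cells, the stem cells of muscle. The ASC library held GFP-positive cells sorted from 17 pooled tibialis anterior muscles of male and female mice aged 18 to 24 weeks, 3 days after injury with 10 uM cardiotoxin, a snake toxin that kills muscle fibres. The other libraries held GFP-positive cells sorted without injury from limb muscles of 3 male mice aged 13 weeks (fiSC), myoblasts at passage 2, and progenitor cells (MPC) grown for 2 passages as myoblasts and 5 more with Forskolin, Repsox and CHIR; both cultures came from males aged 16 weeks. The members come from 1 library of pooled muscles, so spread between mice could not be measured and no test between conditions was run.

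Macrophages enter damaged muscle from the blood as monocytes, clear dead fibres and then change from an inflammatory to a repair state while muscle stem cells divide beside them. Macrophages that have taken up much debris and lipid make a set of genes that includes the lipid-sensing receptor Trem2, the lysosomal membrane glycoprotein Gpnmb, the secreted phosphoprotein Spp1 and the fatty acid carrier Fabp5. They also make lysosomal enzymes, iron stores and secreted factors that act on muscle stem cells, among them Igf1.

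The same threshold, applied to the other libraries, was met by 1 of 2251 fiSC barcodes, 0 of 2412 myoblast barcodes and 0 of 9895 MPC barcodes. A count of 0 allows shares of up to 0.124% and 0.0303% there. The ASC share was 50.4% (49.2 to 51.6%). The sort was for GFP, and the GFP transcript stood at 6.63 CPM (a gene's UMIs summed over a group of cells and scaled to a total of 1000000) in members and 33.2 CPM in myogenic cells. Kept barcodes that ASC shared with other libraries numbered 3 with fiSC, 3 with the myoblasts and 18 with MPC, of which members held 0, 1 and 2.

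The members were not uniform in depth or content. Members had a median of 15815 UMIs (quartiles 9697 to 21549) and 3610 genes, and the myogenic cells 49205.5 UMIs and 6507 genes. The antigen-presenting, interferon-responding and Il1-expressing cells had medians of 13429, 14572 and 17301.5 UMIs. A set of 269 members (14.7%) had under 3000 UMIs, with a median of 1195, and held 1.12% of the members' UMIs; such cells made up 3.24, 6.37 and 3.43% of the other macrophage groups in that order. In these shallow members Lyz2 stood at 5772 CPM, Trem2 at 366, Gpnmb at 682 and C1qb at 945, all below the levels over all members (12639, 1119.5, 3359 and 2171 CPM). Another 89 members (4.85%) had at least 10 UMIs of the 6 myogenic genes, with a median of 65234 UMIs, and held 18.2% of the members' UMIs; such cells made up 1.18, 0.490 and 2.45% of the other groups. The doublet caller Scrublet marked 82 of these 89 cells (92.1%) and 68 of the other 1746 members (3.89%). It marked 2.35, 1.80 and 3.43% of the other macrophage groups, 1.82% of the myogenic cells and 297 of all 6743 kept barcodes (4.40%). Marked cells were kept in the values over all members. Values are therefore also given for the 1477 restricted members (80.5% of members), which have at least 3000 UMIs, at least 1000 genes and under 10 myogenic UMIs, a limit chosen after seeing the data.

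**Figure D1:**
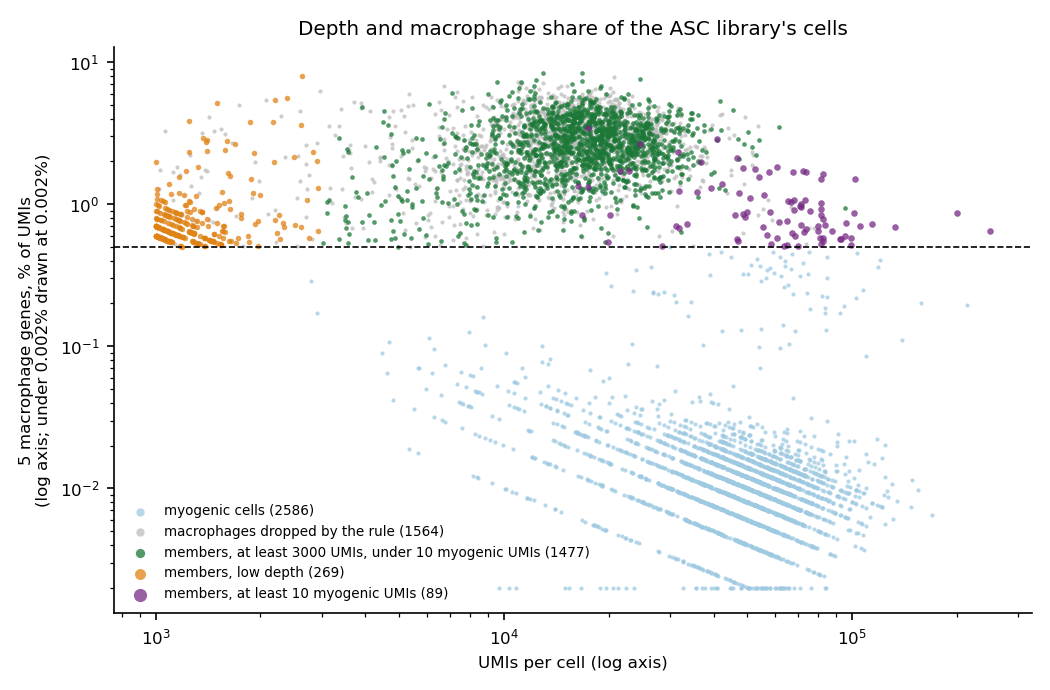
UMIs per cell (x, log axis) against the share of UMIs in the 5 macrophage genes (y, log axis) for the ASC cells of the 5 groups, with each point 1 cell and the dashed line at the threshold of 0.5%. The shallow members (orange, 269) and the members with at least 10 myogenic UMIs (purple, 89) lie near the threshold at opposite ends of depth, and the 1477 restricted members (green) lie between them.

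Cells lay densely on both sides of the first threshold. The 20 macrophages of any group just inside it had 0.502 to 0.517% of their UMIs in the 5 genes and a median of 3761 UMIs. The 20 cells just outside had 0.494 to 0.4996% and a median of 1011.5 UMIs. Of the 475 macrophages with 0.5 to 1% in these genes, 361 were members, and the median depth in this band was 1930 UMIs. The median member had 2.26% (quartiles 1.23 to 3.28%) and the highest 8.41%.

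The members carried the 4 markers of the label. After thinning each cell to 5000 UMIs, which 1522 members and 2580 myogenic cells could give (313 and 6 were left out), Lyz2 (lysozyme) was found in 100% of members, Trem2 in 96.9%, Gpnmb in 97.1% and C1qb (a chain of complement C1q) in 90.9%. In the thinned myogenic cells, which should lack these genes, the shares were 31.5, 4.38, 10.8 and 7.64% in that order. Without thinning Trem2 was found in 89.2% of members and 23.5% of myogenic cells. Lyz2 and C1qb belong to the rule, so their levels describe the selection, while Trem2 and Gpnmb do not.

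Markers of other cell types were low and are given as measured. Of 12 neutrophil markers 3 reached 10 CPM in members (S100a8 44.4, Csf3r 37.9 and Mmp8 31.1 CPM), their sum was 114 CPM beside 91.9 to 146 CPM in the other macrophage groups, and Ly6g, Retnlg, Ngp, S100a9 and Stfa2l1 were at 0. The dendritic cell list summed to 73.4 CPM (others 63.4 to 95), with Siglech and Il12b at 0, and the fibroblast list to 144 CPM (others 118 to 126), of which Gsn was 117. The endothelial or mural list reached 30.7 CPM, the T, NK or B cell list 5.67, the mast cell or basophil list 3.69 and the erythroid list 2.05 CPM. The muscle stem cell list stood at 410.05 CPM over all members, 198 in restricted members and 1323 in the 89 members with myogenic transcripts, against 1629 in myogenic cells.

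Against the myogenic cells, the members were higher in macrophage identity, complement, lipid, lysosome and inflammatory genes and lower in cell division genes. A gene was measured where it reached 10 CPM in the higher group, and it was called higher or lower where (CPM + 5) differed by at least 2-fold. Over the 8992 measured genes 1662 were higher (18.5%) and 2001 lower (22.3%), and the median log2 ratio was -0.27. Among the restricted members 1830 were higher and 2660 lower. The rule used this contrast, so these counts and those below describe the members and nothing is read from their size. Genes with the highest ratios were Lyz2, Ctss, Tyrobp, C1qb and Fcer1g, which belong to the rule, and Apoe, Gpnmb, Pf4, C1qc and Wfdc17, which do not. Apoe, the lipid carrier, stood at 16339.8 CPM (95% exact Poisson interval 16296 to 16384, counting error only) in members and 159 in myogenic cells, a log2 ratio of 6.64. Pf4, a chemokine of platelets and macrophages, stood at 3267 and 31.1 CPM, and C1qc, another C1q chain, at 1184 and 9.76 CPM. The lowest ratios were those of H1f5 (a linker histone), Eno3 (muscle enolase), Birc5 and Ube2c (mitosis), Rrm2 (nucleotide synthesis), Phgdh (serine synthesis), Crip2, Hmgb3, Gal (the neuropeptide galanin) and the rule gene Des (desmin), between -2.62 for H1f5 and -2.46 for Gal.

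All 15 measured genes of the pan-macrophage list outside the rule were higher in members than in myogenic cells, with a median log2 ratio of 5.25 against -0.27 over all genes. Csf1r, the receptor for the macrophage growth factor Csf1, stood at 214 CPM in members, 353 in antigen-presenting, 298 in interferon-responding and 302 in Il1-expressing macrophages and at 2.40 in myogenic cells. Cd68, a lysosomal glycoprotein, stood at 1344, 1039, 1443, 1261 and 12.8 CPM in the same order. The 4 macrophage groups were within 2-fold of each other for both genes, and the myogenic cells lay far below. All 13 measured genes of the complement and tissue-resident list were higher too (median 4.81), although Lyve1, Cd163, Timd4 and Vsig4, markers of macrophages that live in healthy tissue, stood at only 1.89, 2.57, 0.279 and 0.155 CPM.

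In myogenic cells the 5 rule genes stood at 0.719 (Lyz2) to 0.837% (Fcer1g) of their level in restricted members, and Trem2, Gpnmb, Apoe and Pf4 at 0.817, 0.779, 0.849 and 0.825%. Free RNA in the droplets can place transcripts in cells that do not make them, and its part here was not tested. Spp1 stood at 4.83%, Fabp5 at 4.67%, Lgals3 at 10.9%, Ctsl at 22.9% and Cd63 at 78.5%, above that ratio.

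The genes of lipid-loaded macrophages were far higher in members than in myogenic cells. Of 20 genes in the TREM2 lipid-associated list 19 were higher than in myogenic cells (median log2 4.17, restricted 4.38), and the tetraspanin Cd63 was not called (1802 and 1460.4 CPM). Trem2 stood at 1119.5 CPM (1108 to 1131) in members, 893 in antigen-presenting, 1166 in interferon-responding and 1218 in Il1-expressing macrophages and 10.5 in myogenic cells. Gpnmb stood at 3359 CPM (3339 to 3379), 2155, 3149.9, 3261 and 30.5 in the same order. Neither gene was called between members and any other macrophage group. Per cell, thinned to 5000 UMIs, members held a median of 6 Trem2 UMIs (10th to 90th percentile 2 to 11) and 18 Gpnmb UMIs (4 to 33.9), while the 90th percentile of myogenic cells was 0 for Trem2 and 1 for Gpnmb.

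Spp1 (osteopontin) differed between macrophage groups by a larger ratio than the other genes of this list above 1000 CPM in members. It stood at 12237 CPM in members, 4367 in antigen-presenting, 10281 in interferon-responding, 10829 in Il1-expressing and 686 in myogenic cells. Members lay above all 4, and only the antigen-presenting cells (log2 1.49) and the myogenic cells (4.15) were called. Among thinned members Spp1 ran from 8.1 UMIs at the 10th percentile to 144 at the 90th, with a median of 47 and a highest cell of 562. Fabp5 stood at 8641 CPM against 4908, 7825, 7602 and 467 in the order of groups above. The lipid scavenger Cd36 stood at 859.8 CPM in members and 7.89 in myogenic cells, the lipid droplet coat Plin2 at 957 and 54.8, and the lipoprotein lipase gene Lpl at 392 and 29.2. These 3 genes were higher in members.

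**Figure D2:**
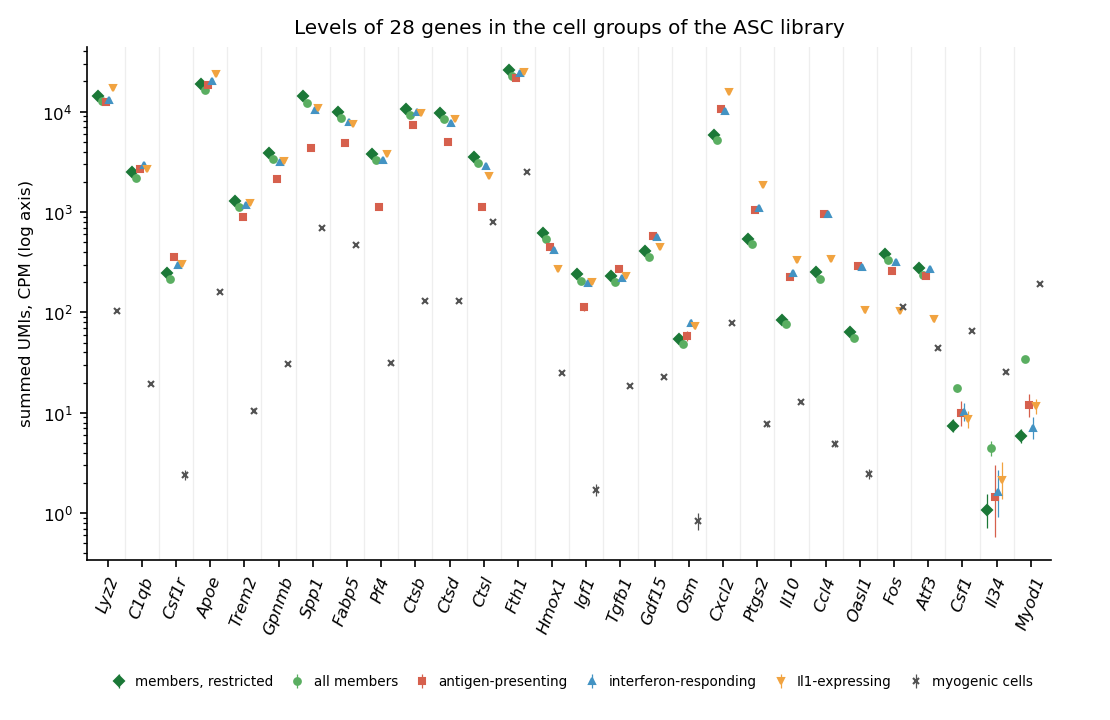
Summed UMIs in CPM (y, log axis) of 28 genes in 6 groups of ASC cells, with bars for 95% exact Poisson intervals, which cover counting error only. The macrophage groups sit together for Lyz2, C1qb, Trem2 and Gpnmb, far above the myogenic cells, and part for Spp1, Pf4, Ctsl, Cxcl2, Ptgs2, Il10 and Ccl4; the myogenic cells are highest for Csf1, Il34 and Myod1.

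Across members, the genes whose levels were most like the sum of Trem2 and Gpnmb were led by lysosomal genes. Among 5162 genes found in at least 10% of the 1522 thinned members, the 10 highest Spearman coefficients belonged to Ctsd (0.56), Ctsb (0.52), Psap (0.50), Cyba (0.44), Ctss (0.43), Spp1 (0.43), Lamp1 (0.42), Syngr1 (0.42), Tyrobp (0.40) and Fabp5 (0.39). Ctsd and Ctsb are cathepsins, proteases of the lysosome, and Psap is the precursor of its sphingolipid activator proteins. Ctss and Tyrobp belong to the rule that chose the members. The coefficients describe cells of 1 library that share its depth, and carry no test. Without the members with at least 10 myogenic UMIs (1433 cells left) Ctsd had 0.50, Ctsb 0.45 and Psap 0.42, and Cd63 (0.36) entered the 10 in place of Tyrobp. Trem2 and Gpnmb had 0.29 with each other (0.21 without those cells). Gpnmb made up most of the sum, with a mean of 18.4 UMIs per thinned member against 6.18 for Trem2. Over these members Gpnmb had 0.96 with the sum and Trem2 0.52, so the ranking mostly describes likeness to Gpnmb. With the sum over all thinned members, C1qb had 0.12, Mrc1 -0.09 and Cxcl2 -0.05.

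**Figure D3:**
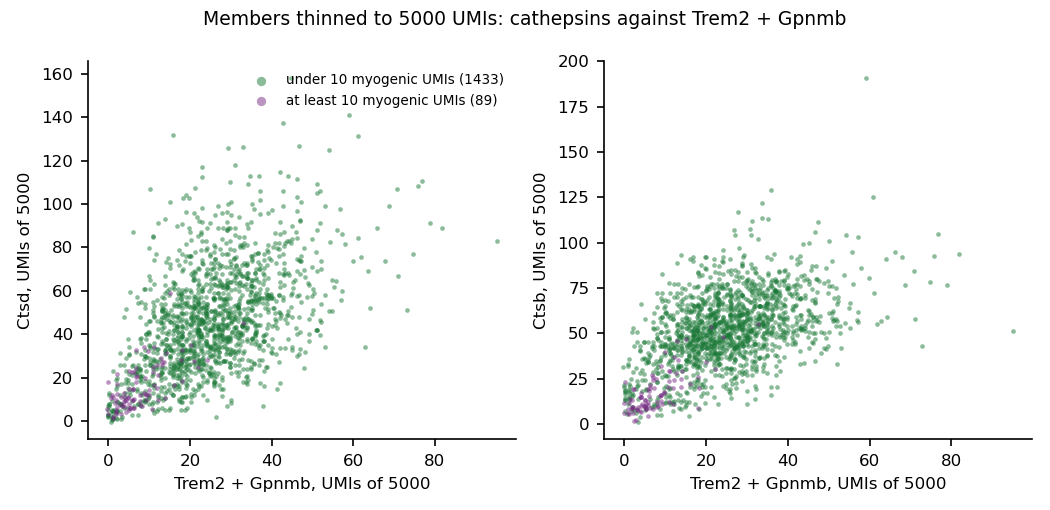
UMIs of Trem2 plus Gpnmb (x) against UMIs of Ctsd (left, y) and Ctsb (right, y) in members thinned to 5000 UMIs, with each point 1 cell shifted at random by less than 1 UMI so that points do not hide each other. Both cathepsins are higher in cells with a higher sum, which is mostly Gpnmb (Spearman 0.56 and 0.52). The 89 members with at least 10 myogenic UMIs (purple) lie at the low end.

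Genes of the lysosome often hold CACGTG, the core of the element bound by the MiT/TFE factors (Mitf, Tfeb, Tfe3, Tfec). For this reason the promoters of Trem2, Gpnmb and 2 lysosomal genes alike to their sum are shown. Each is the 250 bases before the RefSeq transcription start on build GRCm38.p6, 5′ to 3′ on the gene's strand, with CACGTG in capitals. Gpnmb lies at chr6:49036268-49036517 (plus strand), Trem2 at chr17:48346151-48346400 (plus), Ctsd at chr7:142387828-142388077 (minus) and Lamp1, a lysosomal membrane protein, at chr8:13158911-13159160 (plus).
Gpnmb: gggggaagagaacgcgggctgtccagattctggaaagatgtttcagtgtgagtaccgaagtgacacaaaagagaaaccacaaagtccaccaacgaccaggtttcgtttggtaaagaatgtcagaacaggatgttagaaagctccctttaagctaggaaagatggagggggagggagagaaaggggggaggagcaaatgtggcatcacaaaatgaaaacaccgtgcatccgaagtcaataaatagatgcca
Trem2: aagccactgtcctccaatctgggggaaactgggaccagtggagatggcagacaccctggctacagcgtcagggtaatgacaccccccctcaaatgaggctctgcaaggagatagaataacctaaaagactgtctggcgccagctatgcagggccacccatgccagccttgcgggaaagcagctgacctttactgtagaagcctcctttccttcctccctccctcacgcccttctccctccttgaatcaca
Ctsd: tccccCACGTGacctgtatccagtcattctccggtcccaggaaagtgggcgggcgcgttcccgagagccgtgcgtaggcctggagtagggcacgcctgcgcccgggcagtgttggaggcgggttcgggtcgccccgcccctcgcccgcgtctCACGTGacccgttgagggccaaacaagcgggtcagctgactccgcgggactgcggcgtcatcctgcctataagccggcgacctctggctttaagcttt
Lamp1: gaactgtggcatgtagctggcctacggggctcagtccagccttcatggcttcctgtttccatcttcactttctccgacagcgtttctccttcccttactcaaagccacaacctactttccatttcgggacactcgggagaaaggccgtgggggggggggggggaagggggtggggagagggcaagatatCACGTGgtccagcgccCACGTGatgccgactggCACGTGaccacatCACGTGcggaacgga
Ctsd held CACGTG 2 times, at 245 and 98 bases before its start, and Lamp1 held it 4 times, at 61, 45, 28 and 15 bases. Neither the Gpnmb nor the Trem2 window held these letters, from which nothing about the factors follows. The motif reads the same on both strands, so each place was counted once. Among RefSeq windows of 300 bases (250 before to 50 after the start) 2349 of 32851 (7.15%) held CACGTG, and by gene 2187 of 27025 (8.09%). Of the 25 lysosome genes 18 matched a window by symbol and 6 of these held it (33.3%). Of Trem2, Gpnmb and the 10 genes most alike to them 9 matched and 2 held it (22.2%). These 2 were Ctsd and Lamp1, so the lysosomal genes shown do not stand for the set. Ctsb and Psap, which ranked above Lamp1, are not shown. The longer TCACGTGA, which contains CACGTG, was in 3 of the 18 lysosome genes (16.7%), Ctsd among the genes shown, and in 304 of 27025 genes (1.12%). A match describes letters in a window and is no binding site. Of the factors, Mitf stood at 84.4 CPM in members and 9.54 in myogenic cells, Tfec at 31.8 and 2.12, both higher, while Tfeb (17.8 and 8.06) and Tfe3 (28.2 and 16.6), which is in no list, were not called.

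Lysosomal genes were much higher in members than in myogenic cells and differed less among macrophage groups, where their sum was lowest in antigen-presenting cells. The list summed to 42610 CPM in members, 32761 in antigen-presenting, 44484 in interferon-responding and 43282 in Il1-expressing cells. Of 25 lysosome genes 24 were higher than in myogenic cells, with a median log2 ratio of 3.54 (restricted 3.74), and Cd63 was again not called. Ctsd stood at 8436 CPM in members, 4974 in antigen-presenting, 7677 in interferon-responding, 8493 in Il1-expressing and 131 in myogenic cells. Ctsb stood at 9267, 7305, 9964, 9627 and 129 CPM in that order, and Psap at 6309, 5519, 6783, 7022 and 108. Of the 25 genes only Ctsl, the cathepsin with a level of 803 CPM in myogenic cells, was called between members (3078 CPM) and another macrophage group, the antigen-presenting cells (1120.4 CPM, log2 1.45). Grn (progranulin), which serves lysosome function, stood at 1462 CPM in members and 25.6 in myogenic cells, and Atp6v0d2, a subunit of the lysosomal proton pump, at 107 and 0.712.

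Receptors and bridging proteins for the uptake of dead cells were mostly higher in members than in myogenic cells. Of 17 measured genes of the efferocytosis and scavenger list 12 were higher and 1 lower (restricted 13 and 1), with a median of 3.00. Mertk, the receptor kinase for dead cells, stood at 60.2 and 3.17 CPM in members and myogenic cells, and its bridging ligand Gas6 at 136 and 2.93. Axl, a kinase of the same family, was the gene that was lower, at 45.4 against 125 CPM. The scavenger receptors Msr1 (167 and 1.60 CPM), Stab1 (199.7 and 2.29) and Lrp1 (442 and 32.8) were higher, while Marco, Timd4 and Tyro3 stayed under 1 CPM.

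Iron and haem genes followed. Of 15 measured genes 10 were higher and 0 lower than in myogenic cells (median 1.99). The ferritin chains Fth1 and Ftl1 stood at 22589.7 and 11922 CPM in members and 2494 and 1481 in myogenic cells. Hmox1, the enzyme that breaks down haem, stood at 539.6 CPM in members, 449.8 in antigen-presenting, 417 in interferon-responding, 273 in Il1-expressing and 25.1 in myogenic cells. It was highest in members, where its log2 ratio to the Il1-expressing cells was 0.97, under the size rule, and 1.08 in restricted cells, over it. The iron exporter Slc40a1 stood at only 6.98 CPM. The transferrin receptor Tfrc was level with myogenic cells (93.8 and 96.3 CPM) and above the antigen-presenting cells (33.3 CPM, log2 1.37).

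Genes of cholesterol export were mostly higher in members than in myogenic cells. Of 13 measured genes of export and the LXR pathway 9 were higher and 0 lower than in myogenic cells (median 2.78), among them the exporters Abca1 (585 and 6.95 CPM) and Abcg1 (125 and 1.92) and the receptor gene Nr1h3 (38.4 and 1.32). Of 12 measured genes of synthesis 0 were higher and 3 lower, Sqle and Idi1 among them (median -0.60), a share near the 22.3% over all genes, and 5 were lower in restricted members (median -0.77).

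Factors that macrophages are known to pass to muscle cells were mostly higher in members than in myogenic cells. Of 23 measured genes 17 were higher and 2 lower (restricted 17 and 3; median 2.18). Igf1, which drives muscle growth, stood at 206 CPM (201 to 211) in members, 113 in antigen-presenting, 194 in interferon-responding and 202 in Il1-expressing macrophages and at 1.71 in myogenic cells. After thinning Igf1 was found in 54.7% of members, 32, 46.2 and 50.9% of the other macrophage groups and 0.736% of myogenic cells. Members lay highest in both measures, although the intervals of their level overlapped those of the interferon-responding (185 to 204) and Il1-expressing cells (194 to 211). Only the ratio of restricted members to restricted antigen-presenting cells (log2 1.01) met the size rule among macrophages.

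Gdf15, a stress-induced TGF-beta family factor, stood at 359 CPM in members and 22.8 in myogenic cells, and was higher in the antigen-presenting and interferon-responding cells (579.5 and 569 CPM), under the size rule. Gdf3, another member of that family, stood at 13.4 and 0.139 CPM, Tgfb1 at 203 and 18.6, and the cytokine Osm (oncostatin M) at 48.1 and 0.836 in members and myogenic cells. Hgf, which wakes satellite cells, stood at 32.3 and 0.488 CPM, and the vessel growth factor Vegfa at 157 and 33.5. All of these were higher in members. The exceptions were Mif (483 and 1093 CPM) and Pdgfa (48.3 and 124 CPM), which were lower in members than in myogenic cells, and lower still in restricted members (388 and 37.8 CPM).

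The receptors for these factors lay on both sides. Of 19 measured genes of the list of receptors on muscle cells 10 were higher and 3 lower in members. Over all measured genes 18.5% were higher and 22.3% lower, so the lower receptors were no larger a share than among all genes. The lower ones were Egfr (13.9 CPM in members, 3.99 in restricted members and 78 in myogenic cells), the Hgf receptor Met (48.7, 38 and 109) and the glutamine transporter Slc1a5 (22.7, 13.3 and 64.8). Igf1r, the receptor for Igf1, stood at 82.7, 68.6 and 135 CPM in the same order and was not called. The integrin chain Itgb5 (192 and 5.05 CPM in members and myogenic cells) was higher in members.

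In the other direction, both ligands of Csf1r were higher in the myogenic cells. Csf1 stood at 17.5 CPM in members, 7.45 in restricted members and 64.7 in myogenic cells, and Il34, the other ligand of Csf1r, at 4.43, 1.08 and 25.4. Cxcl12 and Tgfb2 stood at 0.884 and 0.653 CPM in restricted members and at 17.4 and 15.4 in myogenic cells. These 4 were the lower ones among 15 measured ligands that act on macrophages, a share near the 22.3% over all genes, and 9 were higher in members, Ccl2, Ccl7 and Gas6 among them. Of 21 measured macrophage receptors 20 were higher in members than in myogenic cells (median 3.16).

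Inflammatory genes were higher in members than in myogenic cells, and Cxcl2 and Ptgs2 stood below their levels in the other macrophage groups. All 14 measured inflammatory cytokine genes outside the rule (median 3.998) and 13 of 14 chemokine genes (median 4.42) were higher in members than in myogenic cells. Cxcl2, which attracts neutrophils, stood at 5238 CPM in members, 10757 in antigen-presenting, 10183 in interferon-responding, 15778 in Il1-expressing and 78.1 in myogenic cells. Ptgs2 (the inducible cyclooxygenase) stood at 477, 1039, 1087, 1862 and 7.72 CPM in that order. Members were the lowest of the 4 macrophage groups for both. The cells highest in Il1a, Il1b and Cxcl3 had been taken out of the members' pool. They had not been taken out of the antigen-presenting and interferon-responding groups, which were set apart before. These contrasts cannot separate inflammatory genes that vary with Il1a, Il1b and Cxcl3 from that step. Among thinned members Cxcl2 ran from 0 UMIs at the 10th percentile to 76 at the 90th (median 17), a wide spread within the members.

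Transcription factors of macrophages were higher than in myogenic cells in 21 of 29 measured cases and lower in 0 (restricted 22 and 2; median 2.00). Spi1 (PU.1), which sets macrophage fate, stood at 189.6 CPM in members and 2.30 in myogenic cells, and Cebpb at 750.02 and 59.5. Runx1, shared by blood and activated muscle cells, was not called over all members (242 and 487 CPM) and was lower in restricted members (191 CPM, log2 -1.33).

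Cell division genes were lower in members. Of 20 S phase genes 18 were lower than in myogenic cells and 0 higher (median -1.72, restricted -2.47), and of 20 G2/M genes 20 were lower (median -2.07, restricted -3.03). Mki67, a marker of dividing cells, stood at 61 CPM in members, 34.1 in restricted members and 201 in myogenic cells. Of the 1522 thinned members 420 (27.6%, interval 25.4 to 29.9%) held 2 or more G2/M list UMIs among 5000 UMIs. The shares were 23.4% of restricted members, 37.9, 30.98 and 36.2% of the antigen-presenting, interferon-responding and Il1-expressing cells, 96.9% of myogenic cells and 95.5% of the 89 members with myogenic transcripts. With 2000 UMIs per cell the shares were 12.5% of members, 8.46% of restricted members, 13.9, 9.78 and 12.04% of the other macrophage groups in that order and 89.4% of myogenic cells, so the order of members among macrophages depended on the depth of thinning. The part of free RNA in these counts was not tested.

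Against the antigen-presenting macrophages 7811 genes were measured, of which 68 were higher in members (0.871%) and 175 lower (2.24%); the median over all measured genes was 0.10 (log2). Among restricted cells 23 were higher and 164 lower, of which 14 and 149 were among the 68 and 175. With only the macrophages with at least 10 myogenic UMIs left out, 21 were higher and 161 lower. The higher genes that stayed over the size rule in restricted cells included Pf4 (3267 and 1121 CPM; log2 1.54, restricted 1.70), Spp1 (restricted 1.65), Ctsl (1.62), Tfrc (1.46) and Cd5l, a secreted scavenger family protein (51 and 13.7 CPM; restricted 1.63). Crip2, Ankrd1, Gal, Chrna1 and H1f5, the other genes with the highest ratios, had restricted ratios of 0.07, 0.07, -0.04, -0.0016 and -0.01.

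The genes lower than in antigen-presenting cells included monocyte, inflammatory, chemokine and interferon response genes. Of 13 measured blood monocyte genes 4 were lower (restricted 5; median -0.55, restricted -0.84) and 0 higher, with Plac8 at 7.63 and 124 CPM, Ly6c2 at 52.4 and 207, and the monocyte chemokine receptor Ccr2 at 5.67 and 57.5 CPM in members and antigen-presenting cells. Of 15 inflammatory genes 11 were lower (restricted 8; median -1.31), and of 15 chemokines 8 were lower and 1 higher (restricted 5 and 1, restricted median -0.86), with Ccl5 at 12.3 and 117 CPM and Ccl4 at 218 and 949. The matrix protease Mmp12 (45.4 and 209.9 CPM) and the integrin Itgax (10.2 and 49.1) were the 2 genes of the TREM2 lipid-associated list that were lower, and Spp1 and Cd5l the 2 that were higher. Outside the 4 genes of the rule, the members also stood lower in Il1b, a gene that was itself used to take out another group (245 and 2767 CPM). Inflammatory genes that vary with Il1b cannot be separated from that step here. Of 18 measured interferon response genes outside the rule 11 were lower (restricted 8, median -1.07) and 0 higher. The removal of cells high in Ifit3, Rsad2, Isg15 and Irf7 touched the members' pool and not the antigen-presenting cells. Genes that vary with these cannot be separated from that removal. Plac8 and Ccl5 were also among the 10 lowest ratios against the interferon-responding cells.

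Against the interferon-responding macrophages 7761 genes were measured, of which 141 were higher in members (1.82%) and 135 lower (1.74%); the median over all measured genes was 0.11 (log2). Among restricted cells only 2 were higher and 123 lower. The split moved with the scaling as well: with TMM factors 87 were higher and 186 lower, and with the mean over cells 68 and 134. All 10 genes with the highest ratios, such as Ankrd1 (log2 1.83) and Map1b (1.62), dropped to between -0.16 (Des) and 0.22 (Map1b) in restricted cells. Of 18 measured interferon response genes outside the rule 16 were lower in members, with and without the restriction (median -2.03, restricted -1.91). Ifit2 stood at 6.48 CPM in members and 116 in interferon-responding cells, Ifit1 at 4.37 and 90.4, and Oasl1 at 55 and 287. They were removed with the 4 rule genes of the same response, which this contrast cannot separate from them. Of 14 inflammatory genes 9 were lower (restricted 6) and of 15 chemokines 9 (restricted 7), among them the monocyte attractants Ccl2 (255 and 603 CPM) and Ccl7 (186 and 552). The later removal of cells high in Il1a, Il1b and Cxcl3 touched the members' pool and not the interferon-responding cells. Genes that vary with those used there cannot be separated from it. The Fc receptor genes Fcgr1 (157 and 393 CPM) and Fcgr4 (53.3 and 134) were also lower. None of the 20 TREM2 lipid-associated or 25 lysosome genes was called in either direction.

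Against the Il1-expressing macrophages 7700 genes were measured, of which 68 were higher in members (0.883%) and 98 lower (1.27%); the median over all measured genes was 0.15 (log2). Among restricted cells 33 were higher and 83 lower, of which 16 and 79 were among the 68 and 98. With TMM factors 31 were higher and 155 lower, and with the mean over cells 133 and 101. Of 15 inflammatory genes outside the rule 11 were lower in members (restricted 10; median -1.33), and of 15 chemokines 3 were lower and 0 higher (median -0.28). Il1a, Il1b and Cxcl3 split these groups, and the contrast cannot separate genes that vary with them from that split. Cxcl1 stood at 795 CPM in members and 3844 in Il1-expressing cells, the anti-inflammatory cytokine Il10 at 76.1 and 331, the granulocyte factor Csf3 at 5.18 and 50.1, and Cd14, a co-receptor for bacterial lipid, at 1032 and 3029.8. The cystine transporter Slc7a11 (143 and 406 CPM) and the MiT/TFE factor Tfec (31.8 and 101 CPM) were lower as well. Of 11 measured alternative activation genes 1 was lower and 0 higher.

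Fos, Jun and other immediate early genes were higher in members than in Il1-expressing cells. Gal had the highest ratio of this contrast, and Ccnd1, Crip2 and Pclaf were also among the 10 highest. Gal and Crip2 were among the 10 lowest ratios against myogenic cells, and with a macrophage cut of 2% both turned sign here. Of 29 measured transcription factors 4 were higher and 1 lower (restricted 7 and 1), and of 19 genes of the heat shock and dissociation list 5 were higher and 1 lower with and without the restriction. Fos stood at 334 CPM in members, 259 in antigen-presenting, 315 in interferon-responding and 103 in Il1-expressing cells. Jun stood at 263, 170.3, 207 and 88.6 CPM, and Atf3 at 238, 229.7, 268 and 85.2. The Il1-expressing cells were the lowest group for all 3 genes. Klf2 (37 and 9.60 CPM), the small GTPase Rhob (69.8 and 21.8), the ubiquitin ligase Fbxo32 (59.9 and 19.6) and the chaperone Hspa1a (63.7 and 21.8) were higher too, and in restricted cells so were Pparg (log2 1.18) and Cebpa (1.08). Genes of this kind also respond to enzymatic digestion of tissue, and the part of the digestion was not tested.

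**Figure D4:**
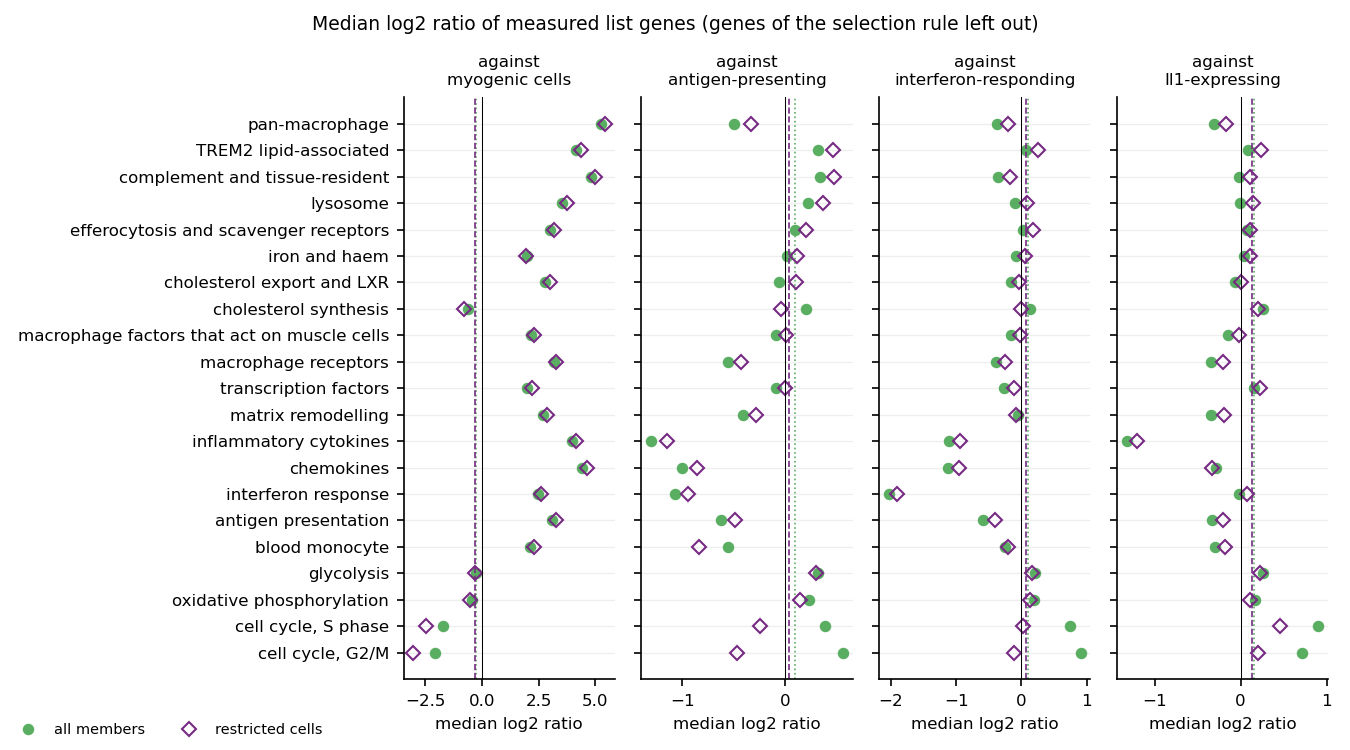
Median log2 ratio (x) of the measured genes of 21 lists (y) in members against each of the 4 comparison groups, over all members (filled) and over restricted cells (open), with genes of the rule left out; dotted and dashed lines mark the median of all genes, and the x axes differ. The macrophage and lysosome lists lie far above 0 against myogenic cells and near 0 against other macrophages, where the inflammatory list is among the 3 lowest each time and the interferon list is lowest against interferon-responding cells; the cell cycle lists move most with the restriction.

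The members were clustered among themselves to show how they varied. Without the rule genes, mitochondrial genes and GFP, 7 clusters formed; they are given by number, since the same genes defined them, and the values describe them with no test. Cluster 1 (541 cells, 29.5% of members) held the most Trem2 (1563 CPM), Gpnmb (4224), Spp1 (17324), Fabp5 (12766), Lgals3 (8626) and Fth1 (31098), and its leading genes included Cd5l (79.6), Fabp4 and the monocyte gene Ly6c2 (94.8). The sum over the TREM2 lipid-associated list was also highest in cluster 1, at 73008 CPM beside 59594.5, 59914 and 61112 in clusters 2, 3 and 5.

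Cluster 2 (363 cells) was led by Nrg1, a ligand of ErbB receptors, at 269 CPM (others 45.9), with Slc7a11 (346), the EGF-family ligand Areg (82.7), Il10 (161), Ptgs2 (948) and Cxcl2 (8858). It also held the most Apoe (23209.5 CPM) and Abca1 (1017). Cluster 3 (272 cells) was led by immediate early genes, with Atf3 at 963 CPM (others 133), Fos at 1153 (215), Jun at 856 (177) and Klf2 at 155 (19.8), and it held more Ccl4 (603) and Gdf15 (839) but less Cxcl2 (1900.4) and Cxcl1 (155) than cluster 2. Cxcl2 and the immediate early genes were thus highest in different clusters. Fos (889 CPM) and Atf3 (692 CPM) were also high in cluster 7, which held the most Ccl4 (1098 CPM).

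Cluster 5 (238 cells) was led by Mmp12 at 146 CPM (others 28.5), the arginase gene Arg1 at 111 (32.6) and the collagen-cutting cathepsin Ctsk at 122 (42.8). Without thinning these were found in 18.1, 27.7 and 58.0% of its cells. The other leading genes, Plcb1, Plpp3, Hdac9, Cdk14, Arhgap24, St18 and Fmnl2, are in no list and were found in 46.6 (Hdac9) to 92.0% (Fmnl2). The cluster held the most Cd36 (1609 CPM), Lpl (701) and Ctsl (4502). Clusters 1, 2, 3 and 5 had median depths between 14894 and 18951 UMIs, and Trem2 lay between 1056 and 1563 CPM and Gpnmb between 3838 and 4224 CPM in them. Igf1 was also even among these 4 clusters, at 257, 209, 252 and 253 CPM.

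Cluster 4 (266 cells) held 250 of the 269 shallow members and had a median of 1194.5 UMIs, 6.02% of the library's median. It was led by Tlcd4, Map3k19 and H2ac20, carried the ribosomal RNA gene Rn18s at 72505 CPM and Trem2 at 504 CPM, and stays unnamed. Cluster 6 (106 cells, median 58436.5 UMIs) held all 89 members with at least 10 myogenic UMIs and 19.6% of the members' UMIs. Its levels were 148 CPM of Myod1, the myogenic determination factor, 355 of the giant muscle protein gene Ttn and 90.4 of Pax7, beside 5483 CPM of Lyz2.

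Cluster 7 (49 cells, median 15572 UMIs) had lower levels of several lipid-associated genes. It was led by Lyve1 (68.6 CPM, interval 52.1 to 88.6, other members 0.0955) and Cd163 (68.6, other members 0.796), both markers of tissue-resident macrophages. The monocyte attractants Ccl7 (1720.3, other members 145) and Ccl2 (2090.3, other members 206) followed. The mannose receptor Mrc1 stood at 1141 CPM, the iron exporter Slc40a1 at 85.1 and the monocyte genes Ccr2 and Plac8 at 75.7 and 69.8. Trem2 (531 CPM), Gpnmb (949), Fabp5 (1647) and Spp1 (4120.4) were lower there than in clusters 1, 2, 3 and 5, while Mki67 stood at 337 CPM and Top2a, the topoisomerase of dividing cells, at 279. Resident and monocyte genes were both among the leading genes of this cluster. Without thinning, Lyve1 was found in 24.5% of its cells, Cd163 in 36.7%, Slc40a1 in 16.3%, Ccr2 in 28.6% and Plac8 in 32.7%. Ccl7 and Ccl2 were found in 85.7 and 87.8%. Whether the same cells held resident and monocyte genes was not tested. All 49 of its cells were restricted members, and it too stays unnamed.

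**Figure D5:**
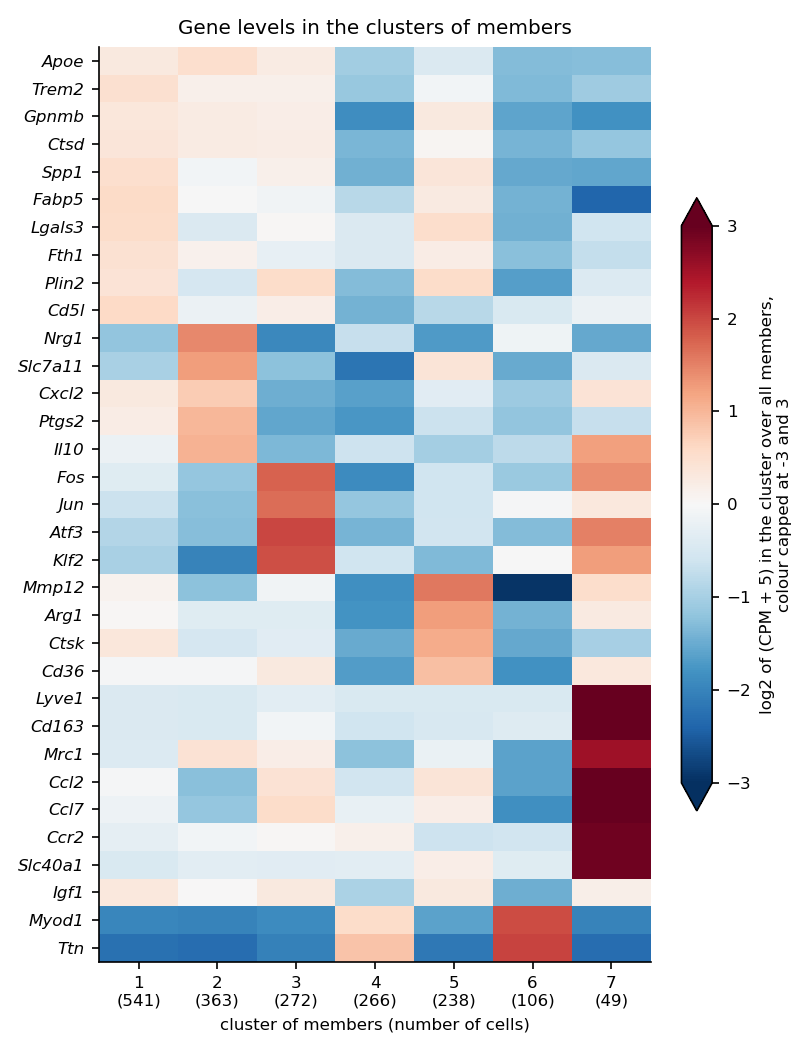
Levels of 33 genes (y) in the 7 clusters of members (x, with the number of cells), drawn as log2 of (CPM + 5) in the cluster over all members, with colours capped at -3 and 3. Trem2, Gpnmb, Spp1 and Fabp5 are highest in cluster 1, Nrg1, Slc7a11 and Cxcl2 in cluster 2, Fos, Jun, Atf3 and Klf2 in cluster 3, Mmp12, Arg1 and Ctsk in cluster 5, Myod1 and Ttn in cluster 6, and Lyve1, Cd163, Ccl2 and Ccl7 in cluster 7.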

How the data were processed

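Single-cell RNA was measured with 10x Genomics 3′ chemistry in 4 mouse libraries. The deposited files hold raw UMI counts per gene and barcode; the submitters' processing notes name STAR 2.7.10b, an aligner, and the GRCm39 build. Barcode calling and the collapsing of UMIs are not given in the sources used here. 3′ UMI counts do not scale with gene length, but genes differ in capture, so levels are compared between groups of cells and not between genes.

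UMIs were summed per cell group and scaled to CPM; log2 ratios use a pseudocount of 5 CPM. With 1 library and no replicates there was no test: genes were called by the size rule (at least 2-fold, at least 10 CPM in the higher group). Poisson and Clopper-Pearson intervals at 95% cover counting error only; over list genes of 10 CPM or more, the widest Poisson interval reached 10.96% of the value on either side in members and 29.1% in antigen-presenting cells. A count of 0 allows 3 counts. Depth was 21434933 (fiSC), 199488336 (ASC), 60415378 (myoblast) and 171748476 UMIs (MPC). In ASC 28.1% of barcodes had under 1000 UMIs and were left out.

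Members and the 37 lists (569 genes) were chosen with earlier results of these data known. Named genes are those of the rule and markers, list genes, the 10 highest and 10 lowest ratios per comparison at 50 CPM or more, and the 10 genes most alike to Trem2 plus Gpnmb; cluster genes were chosen after their values were seen. Clusters used 2000 variable genes, 30 components, 15 neighbours and Leiden resolution 0.5 (scanpy 1.11.5, igraph 0.11.9). Scrublet (expected rate 8%) marked doublets, which were kept and left out as an alternative. TMM factors came from edgeR 4.0.16. The calculation was tested on simulated counts. Results for some list genes are not reported here.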

Additional observations from a re-analysis of the deposited data

How the results depend on the processing

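The number of called genes moved by more than 1.5 times under the following settings. With TMM factors 87 genes were higher in members than in interferon-responding cells, and 31 higher and 155 lower than in Il1-expressing cells. With the mean over cells 68 and 133 were higher than in these groups. With a pseudocount of 1 CPM 191, 289 and 226 were higher than in antigen-presenting, interferon-responding and Il1-expressing cells. With at least 50 CPM 1016 were higher and 996 lower than in myogenic cells, 18 higher and 110 lower than in antigen-presenting cells, and 26 and 30 higher than in the other macrophage groups. The higher genes against the 3 macrophage groups, in the order above, numbered 19, 0 and 30 with a macrophage cut of 2%, 22, 2 and 32 without barcodes marked by Scrublet, 21, 2 and 33 without macrophages with at least 10 myogenic UMIs, and 23, 2 and 33 in restricted cells, a restriction chosen after seeing the data. TMM moved the median log2 ratio of all genes from -0.27 to -0.12 against myogenic cells, 0.10 to -0.0095 against antigen-presenting, 0.11 to -0.07 against interferon-responding and 0.15 to -0.03 against Il1-expressing cells.

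Of the calls of named genes, 250 of 264 were kept with TMM, 219 of 258 in restricted cells and 201 of 256 with the 2% cut. Ratios that turned sign were those of muscle and cell division genes and a few others. With a macrophage cut of 2%, against antigen-presenting cells, log2 ratios became Chrna1 -0.25, Crip2 -0.18, Eno3 -0.13, Gal -0.26, Map1b -0.050, Phgdh -0.34 and Ttn -0.30. With a macrophage cut of 2%, against interferon-responding cells, log2 ratios became Ankrd1 -0.018, Birc5 -0.28, Crip2 -0.15, Des -0.11, Eno3 -0.093, H1f5 -0.039, Rrm2 -0.094, Top2a -0.015 and Ube2c -0.15. With a macrophage cut of 2%, against Il1-expressing cells, log2 ratios became Chrna1 -0.048, Crip2 -0.030, Eno3 -0.10, Gal -0.016 and Rrm2 -0.11. Without barcodes marked by Scrublet, against interferon-responding cells, log2 ratios became Birc5 -0.0051 and Eno3 -0.029. Without macrophages with at least 10 myogenic UMIs, against antigen-presenting cells, the log2 ratio became Phgdh -0.0068. Without macrophages with at least 10 myogenic UMIs, against interferon-responding cells, log2 ratios became Birc5 -0.022, Des -0.0016 and Eno3 -0.081. In restricted cells, against antigen-presenting cells, log2 ratios became Chrna1 -0.0016, Eno3 -0.11, Gal -0.043, H1f5 -0.013, Phgdh -0.19 and Ttn -0.092. In restricted cells, against interferon-responding cells, log2 ratios became Ankrd1 -0.015, Birc5 -0.14, Chrna1 -0.025, Crip2 -0.083, Des -0.16, Eno3 -0.25, Rrm2 -0.042 and Ttn -0.0016. In restricted cells, against Il1-expressing cells, the log2 ratio became Des -0.058. The cause was not tested. With 1 library per group no replicate could be left out. No paired analysis was possible because each group has 1 library and the values come from no test.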

Other observations

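Members and myogenic cells differed little in the glycolysis list as a whole, with a median log2 ratio of -0.27 over 18 measured genes, equal to that of all genes. Of these genes 4 were higher in members and 2 lower (restricted 4 and 4). Over all measured genes 18.5% were higher in members than in myogenic cells and 22.3% lower, the shares to set beside each list here. The higher genes were the hexokinases Hk2 (96.5 CPM in members and 38.8 in myogenic cells) and Hk3 (67.5 and 0.960), the glycolytic regulator Pfkfb3 (39.4 and 5.63) and the lactate exporter Slc16a3 (34.7 and 2.94). The lower genes were the enzymes Pgk1 (219 and 589 CPM) and Eno1 (35.2 and 86.2 CPM). Of 20 oxidative phosphorylation genes 2 were higher and 2 lower (restricted 2 and 4; median -0.44), and against the other macrophage groups 0 of these 20 were called. Of 11 hypoxia genes 4 were higher and 1 lower (median 0.43), with Bnip3l, a receptor for the removal of mitochondria, at 214 and 45.7 CPM and the oxygen sensor Egln3 at 6.42 and 33.2 CPM.

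Genes that act on the matrix were mostly higher in members than in myogenic cells, 13 of 17 measured, with 3 lower (median 2.71). Over all measured genes 18.5% were higher and 22.3% lower. Thbs1 (thrombospondin) stood at 1248 and 60.9 CPM and the protease inhibitor Timp2 at 881 and 195 CPM, while the related inhibitor Timp1 (50.5 and 173 CPM) and the matrix genes Vcan (19.9 and 69.7) and Sparc (32.2 and 128) were lower. All 6 measured Fc receptor genes outside the rule (median 4.07) and all 14 Ms4a and C-type lectin genes (median 4.10) were higher in members, with Ms4a7 at 947 and 9.48 CPM. Of 13 measured alternative activation genes 11 were higher and 1 lower (median 2.87). Against the antigen-presenting macrophages the Ms4a and lectin list leaned the other way, with 4 of 14 lower and 0 higher (median -0.63). These lists contrast macrophages with muscle cells, a contrast the choice of members used.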
